A study of Homo sapiens with 5 samples.

Results

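Epithelial-mesenchymal transition (EMT) transcription factors and the cadherins they control were examined for PHF8 binding in melanoma cells. The set held 8 of the 20176 protein-coding genes in the annotation, chosen by name and function: the 6 factors SNAI1, SNAI2, TWIST1, TWIST2, ZEB1 and ZEB2 and the 2 cadherin genes CDH1 and CDH2. PHF8, a Jumonji C histone demethylase, was immunoprecipitated from crosslinked chromatin of the established human melanoma line SKMEL-147, and the recovered DNA was sequenced (ChIP-seq). The series held 5 samples, 3 ChIPs of PHF8 called replicates A, B1 and B2 and 2 input chromatin libraries called A and B. All were of the same line, with no treatment or genotype given in their labels. Whether B1 and B2 were called against the same input is not stated. Only the ChIP samples came with peak lists to analyse, and the labels do not say whether replicates came from separate cultures. There was 1 group of ChIP samples, so no conditions were compared.

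In EMT, epithelial cells lose their cell-cell junctions and gain migratory, mesenchymal properties. SNAI, ZEB and TWIST proteins are DNA-binding factors that recognise E-box sequences, and SNAI and ZEB proteins repress CDH1, which encodes the epithelial adhesion molecule E-cadherin, while CDH2 encodes N-cadherin, the form that takes its place in mesenchymal cells. Melanocytes come from the neural crest, and in melanoma a shift from E-cadherin to N-cadherin and from ZEB2 and SNAI2 toward ZEB1 and TWIST1 has been tied to invasive states. PHF8 reads trimethylated lysine 4 of histone H3, a mark of active promoters, through its plant homeodomain finger and removes repressive methyl marks.

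A promoter was the stretch within 1 kb of any transcription start site (TSS) of a gene, and a gene was counted as bound where a peak overlapped a promoter in all 3 replicates. By this rule 7 of the 8 genes were bound, against 60.2% of all protein-coding genes. Among genes with CpG-island-like promoters (defined below) the share was 81.2%. The same 7 had a peak over the gene record, from its first to its last base, in all 3 replicates, against 61.2% of protein-coding genes. CDH1 was the exception and had no peak at a promoter or over its gene in any replicate, a state shared by 34.3% of protein-coding genes. Positions below refer to hg19 (GRCh37), and the canonical TSS is the start of the Ensembl canonical transcript.

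Sequences of bound promoters are shown first, 5′ to 3′ on the strand of the gene, with CpG dinucleotides in capitals since most bound promoters were CpG-rich (values follow). For CDH2 (chr18:25757095-25757344, minus strand) and TWIST1 (chr7:19157260-19157509, minus strand), whose peaks reached across the canonical TSS in A, the 250 bases before that TSS are given.
CDH2: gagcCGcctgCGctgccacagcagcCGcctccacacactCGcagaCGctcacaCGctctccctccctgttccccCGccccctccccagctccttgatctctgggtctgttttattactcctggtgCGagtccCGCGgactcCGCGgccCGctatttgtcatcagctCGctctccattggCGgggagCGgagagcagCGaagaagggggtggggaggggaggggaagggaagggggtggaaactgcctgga
TWIST1: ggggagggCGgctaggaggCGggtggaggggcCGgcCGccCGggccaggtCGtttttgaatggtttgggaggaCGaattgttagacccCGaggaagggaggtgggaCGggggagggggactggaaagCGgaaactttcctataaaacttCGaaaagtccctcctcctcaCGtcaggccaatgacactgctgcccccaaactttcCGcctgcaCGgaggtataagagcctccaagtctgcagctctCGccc
The CDH2 stretch holds 17 CpGs and that of TWIST1 15.

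Around the middle one of the 3 summits of the strongest promoter peak, 101 bases are shown for ZEB1 (chr10:31608193-31608293, plus strand), ZEB2 (chr2:145274769-145274869, minus strand) and TWIST2 (chr2:239756366-239756466, plus strand). These stretches centre on the signal itself.
ZEB1: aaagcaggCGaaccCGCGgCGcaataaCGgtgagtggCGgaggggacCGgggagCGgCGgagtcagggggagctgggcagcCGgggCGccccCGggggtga
ZEB2: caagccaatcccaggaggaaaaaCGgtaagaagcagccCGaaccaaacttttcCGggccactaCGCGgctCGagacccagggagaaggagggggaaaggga
TWIST2: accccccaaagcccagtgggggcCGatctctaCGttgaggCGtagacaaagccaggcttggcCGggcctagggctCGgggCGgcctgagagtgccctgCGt
The ZEB1 stretch holds 12 CpGs, that of TWIST2 7 and that of ZEB2 6.

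The value of a peak was its fold enrichment, the ratio of ChIP fragments to local background at the summit (the highest point of the peak), with 1 added to both, as deposited. The lists held 20120 to 21506 peaks with a median fold enrichment of 18.9 in A and 11.8 in both B1 and B2. Since the scale differed between lists, each gene's strongest promoter peak was also given as a percentile, the share of promoter-bound protein-coding genes of the same replicate with a lower value, ties at their middle (12268 to 12583 genes ranked). Series of 3 values are in the order A, B1 and B2.

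SNAI1 (ENSG00000124216, chr20:48599517-48605423) encodes Snail, a zinc finger repressor of CDH1. Its single TSS was covered by a peak in each replicate, with fold enrichments of 18.3, 11.0 and 14.1. The highest value was in A and the lowest in B1. The summits lay 108 to 157 bp downstream of the TSS in the first coding exon. The mean percentile was 23.0 ± 7.52 (SD, n = 3), from 18.6 in A to 31.7 in B2. These peaks were narrow, 326 to 376 bp wide, while the median width of the strongest promoter peak over all promoter-bound protein-coding genes was 668 to 803 bp. A separate upstream peak, with summits at -291 and -305 bp from the TSS, was listed in B1 (4.52) and B2 (4.64) and not in A.

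SNAI1 had the highest local background of the 7 strongest peaks in each replicate. The whole number of ChIP fragments at a summit, recovered from the deposited fold enrichment and p-value, was 91, 66 and 63. The background used by the peak caller was 2.56, 2.64 and 1.74 times the genome-wide one. Ranked by fragments in place of fold enrichment, SNAI1 stood at a mean percentile of 50.0 ± 3.40 (SD, n = 3). By this measure TWIST2 stood at 47.7 ± 14.2 and ZEB1 at 39.3 ± 10.4 (SD, n = 3 each), and the order of the 3 genes changed with the replicate. The source of the raised background at SNAI1 was not tested, and the backgrounds of B1 and B2 may rest on the same input.

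SNAI2 (ENSG00000019549, chr8:49830157-49834299) encodes Slug, the paralogue of Snail with a role in neural crest and melanocyte development. It had the lowest values of the bound genes, 13.6, 4.54 and 6.82. Its mean percentile was 6.57 ± 4.87 (SD, n = 3), with the lowest place among the 7 in each replicate. The summits lay 124 to 176 bp downstream of the canonical TSS, in the 5′ untranslated region in A and B2 and in the first coding exon in B1. The number of fragments at the summit was 34, 19 and 24. A further peak (5.84) at -172 bp from the canonical TSS was listed in A only.

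TWIST1 (ENSG00000122691) encodes a basic helix-loop-helix factor that acts in mesoderm and neural crest. Its gene record, chr7:19060614-19157259, is long because of an extended transcript, and the peaks lay at its 5′ end. Fold enrichments of its strongest promoter peak were 31.3, 10.2 and 12.0, so A was higher than either B replicate. The same held for its percentiles of 46.9, 15.8 and 23.4. The peak was 1453 to 1547 bp wide and its width stood at a mean percentile of 95.7 ± 0.738 (SD, n = 3). The summit was at 278 to 285 bp downstream of the canonical TSS in A and B1 and at 120 bp in B2, in untranslated exon sequence each time.

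TWIST2 (ENSG00000233608, chr2:239756673-239832230) encodes the paralogue of TWIST1. It had the highest mean percentile of the 7, 58.6 ± 15.6 (SD, n = 3), and the only one above 51.8, the median of this mean over the 12139 protein-coding genes bound in all 3 replicates. Fold enrichments were 36.6, 25.2 and 16.4, and the percentiles were 59.9, 73.4 and 42.4, so the replicate with the highest fold was not the one with the highest rank. The strongest summit lay upstream, 229 to 258 bp before the 5′-most TSS, within 29 bp across replicates. In B2 the signal was divided into 3 peaks where B1 had a single peak of 1786 bp. TWIST2 was also the only member with a peak inside the gene and outside promoters, in an intron 16.4 kb downstream of its nearest TSS. This intronic peak was in all 3 replicates, with a fold enrichment of 8.08, 5.91 and 6.28, and no promoter window of any gene overlapped it.

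ZEB1 (ENSG00000148516, chr10:31607424-31818742) encodes a zinc finger and homeodomain repressor. Fold enrichments of its strongest promoter peak came to 37.6, 15.6 and 15.0, and its mean percentile to 44.7 ± 15.3 (SD, n = 3). Replicate A stood apart here too, at a percentile of 62.3 against 35.9 in both others. The summits lay 84 to 120 bp downstream of the canonical TSS, in the first intron, and within 36 bp of each other. Of the 21 TSSs of ZEB1, 15 had a peak within 1 kb in all 3 replicates. A weaker region centred 1064 bp downstream of the canonical TSS was also listed in all 3, at 5.26, 6.14 and 3.94.

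ZEB2 (ENSG00000169554, chr2:145121931-145278624) encodes the paralogue of ZEB1, expressed in the melanocyte lineage. Its canonical TSS had no peak within 1 kb in any replicate, and the nearest peak began 2106 to 2178 bp downstream. The bound promoter was that of alternative transcripts. Its summits were 127 to 191 bp downstream of the TSS at position 145274986, which belongs to a transcript with no defined coding sequence. Fold enrichments here were 17.9, 12.3 and 14.8, with a mean percentile of 25.3 ± 8.88 (SD, n = 3). Of its 46 TSSs, 19 were bound in all 3 replicates and 27 in 0. The peak was 1449 to 1483 bp wide, at a mean width percentile of 95.0 ± 1.57 (SD, n = 3). With 1 TSS per gene, the start of either its record or its canonical transcript, ZEB2 was not bound and the count of bound members was 6. With the TSSs of protein-coding transcripts only, ZEB2 stayed bound. A second region in all 3 replicates had its summits at -3531 to -3472 bp from the 5′ end of ZEB2, at 19.1, 13.9 and 8.46, inside the promoter windows of the noncoding genes LINC01412 and LINC02993.

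**Figure D1:**
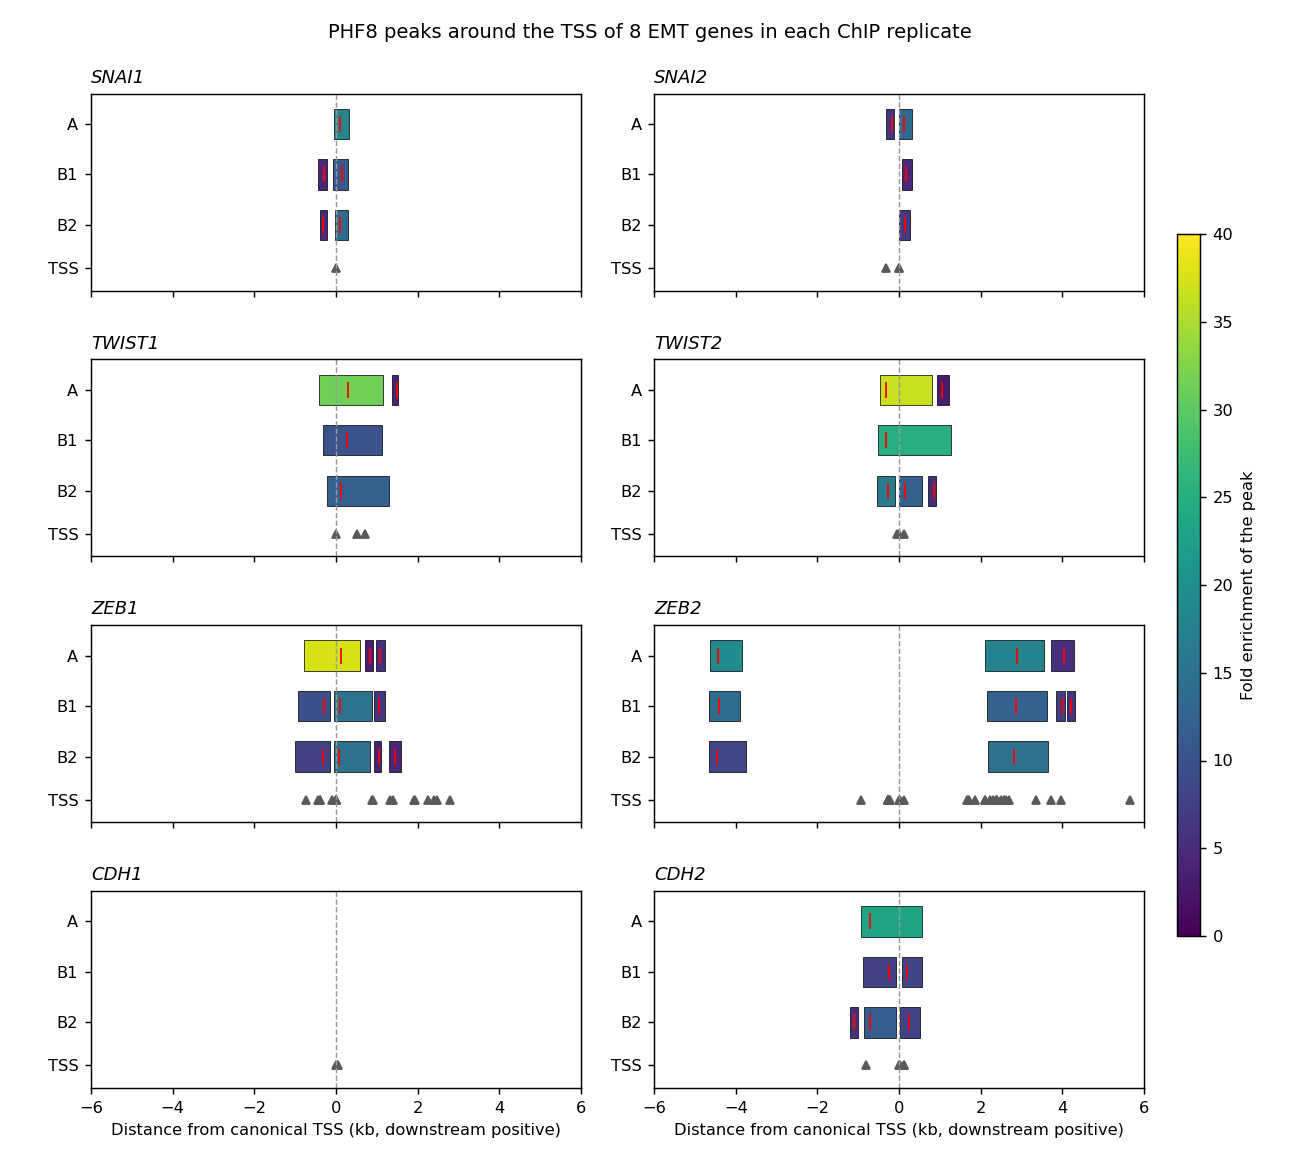
PHF8 peaks of replicates A, B1 and B2 (rows) around the canonical TSS of each of the 8 genes; the horizontal axis is the distance from that TSS in kb with downstream positive, boxes are peaks coloured by fold enrichment, red ticks are summits and triangles are annotated TSSs in the window. Peaks overlap the TSS or begin within 79 bp of it for 6 genes, start 2106 to 2178 bp downstream of it for ZEB2, and are missing from the window for CDH1.

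CDH2 (ENSG00000170558, chr18:25512843-25757910), which encodes N-cadherin, was bound at its 5′ end in each replicate. Its strongest promoter peaks reached fold enrichments of 23.4, 8.18 and 11.5, and its mean percentile was 19.8 ± 8.89 (SD, n = 3). In A and B2 the strongest summit was 97 and 110 bp downstream of the 5′-most TSS, and in B1 it was 62 bp downstream of another TSS, so that summits were spread over 911 bp. In A a single peak of 1491 bp covered both positions. In B1 and B2 the same stretch was listed as separate peaks. Of the 11 TSSs of CDH2, 5 were bound in all 3 replicates and 6 in 0.

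CDH1 (ENSG00000039068, chr16:68771195-68869440), which encodes E-cadherin, had no peak within 1 kb of any of its 10 TSSs and none over its 98.2 kb. The nearest peaks were outside the gene. On the downstream side a peak lay 7.88 to 7.93 kb past the 3′ end, in the promoter window of TANGO6, with fold enrichments of 41.9, 42.3 and 40.5. On the upstream side the nearest peak was 197 kb away, at the promoter of ZFP90, with 53.1, 26.5 and 30.6. In regions at the genome-wide background the fewest summit fragments of a listed peak were 9, 8 and 10. The lists hold called peaks only, so a weaker signal at CDH1 was not detectable in them, and no value can be given for it.

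The absence of a peak at CDH1 was set against a broad class of CpG-rich promoters, which was not matched closely to CDH1. A promoter was called CpG-island-like where the 250 bp on either side of the canonical TSS had a GC share of at least 0.5 and a ratio of observed to expected CpG of at least 0.6. CDH1 met this with a GC content of 70.3% and a CpG ratio of 0.70. Of the 13464 CpG-island-like promoters, 81.2% were bound in all 3 replicates and 14.9% had no peak at a promoter or over the gene in any. Among the 2940 genes that were also at least as long as CDH1, the latter share was 15.1%. CDH1 was 1 of this minority, but its CpG ratio was in the lower part of the class. Of genes with a CpG ratio from 0.70 to 0.75, whatever their GC content, 932 were bound in all 3 replicates and 324 were not.

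The other promoters varied in GC content and less in CpG ratio. At the canonical TSS the CpG ratio ran from 0.71 in ZEB1 to 0.92 in TWIST2 among the 7 bound genes, with CDH1 just below at 0.70. CDH2 had the highest GC content, 72.7%, and ZEB2 the lowest, 47.9%, which left the canonical ZEB2 promoter outside the CpG-island-like class. At the ZEB2 TSS nearest to the strongest summits, GC content was 64.1% and the CpG ratio 0.93, inside the class. At the TSS most often nearest to the strongest summit, all 7 bound genes were CpG-island-like.

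**Figure D2:**
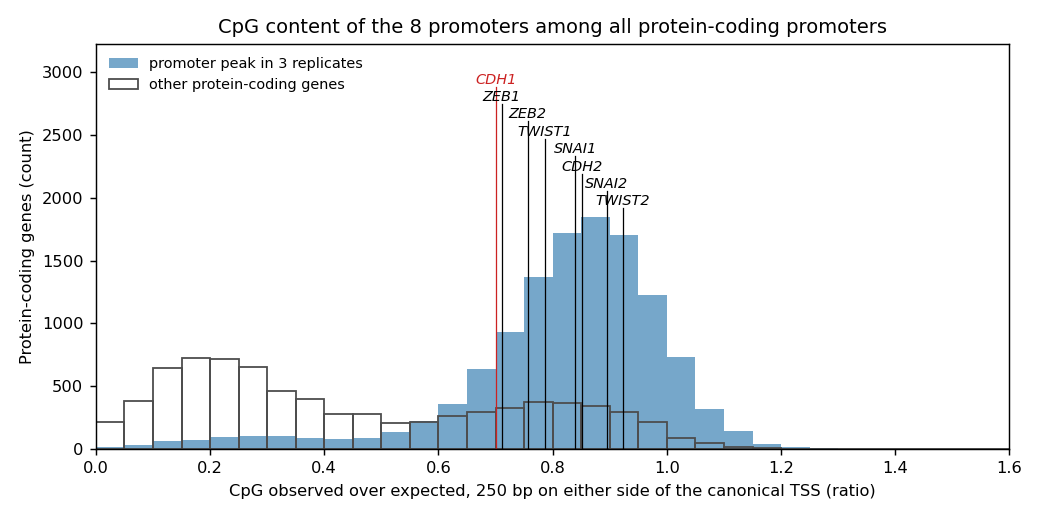
Histogram of the ratio of observed to expected CpG within 250 bp on either side of the canonical TSS for protein-coding genes with a promoter peak in 3 replicates (filled) and all others (outlined); the vertical axis is the number of genes and the lines mark the 8 members, CDH1 in red. All 8 lie between 0.70 and 0.92, under the main body of bound promoters, and CDH1 is next to ZEB1.

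Among the 7 bound genes the order by mean percentile was TWIST2, ZEB1, TWIST1, ZEB2, SNAI1, CDH2 and SNAI2. The ranges of each pair of neighbours in this order overlapped. ZEB1 was above TWIST1 and CDH2 above SNAI2 within each of the 3 replicates. B1 and B2 had the same order of all 7 genes, which was TWIST2, ZEB1, ZEB2, SNAI1, TWIST1, CDH2 and SNAI2. Only A had another order, and the order by mean percentile was that of no single replicate. ZEB1 was above TWIST2 in A and below it in B1 and B2. Further down, TWIST1 held place 3 in A and place 5 in B1 and B2, while CDH2 held place 4 in A and place 6 in B1 and B2. Median fold enrichments of the bound members were 23.4, 11.0 and 14.1, against 32.6, 19.1 and 18.2 over all promoter-bound protein-coding genes. Their median percentile was 27.8, 18.7 and 31.7. With a fold enrichment above 10 required in all 3 replicates, 5 of the 8 members were called, against 49.6% of protein-coding genes, and SNAI2 and CDH2 were lost.

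**Figure D3:**
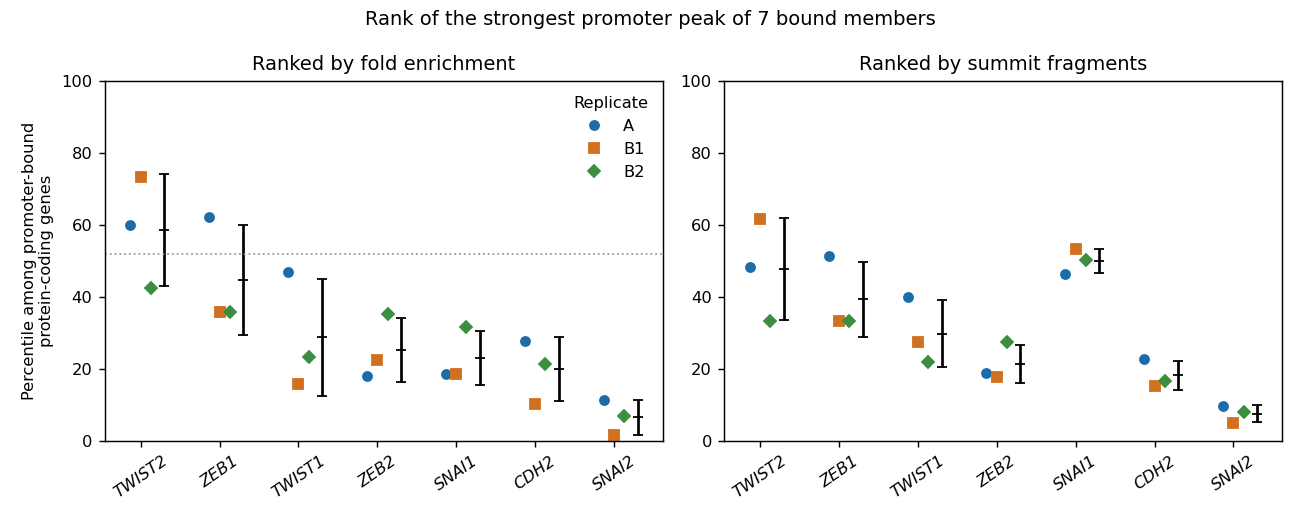
Percentile of the strongest promoter peak of the 7 bound genes among promoter-bound protein-coding genes, by fold enrichment (left) and by summit fragments (right), with 1 symbol per replicate and bars for the mean and SD of 3 replicates; the dotted line is the median of the mean percentile over all genes bound in 3 replicates, 51.8. By fold enrichment 6 of 7 means lie below the line, and SNAI1 moves from 23.0 on the left to 50.0 on the right.

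Paralogues were compared within each replicate, as differences of percentile. SNAI1 was above SNAI2 by 7.29, 17.1 and 24.9, a mean of 16.4 ± 8.82 (SD, n = 3). TWIST1 was below TWIST2, with differences of -13.0, -57.6 and -19.0 and a mean of -29.8 ± 24.2 (SD, n = 3). ZEB1 was above ZEB2 by 44.3, 13.4 and 0.68, a mean of 19.4 ± 22.4 (SD, n = 3). Each difference had the same direction in 3 of 3 replicates, and the exact two-sided sign-flip permutation test gave p = 0.25 for each (adjusted 0.25 over 3 pairs), the smallest value that 3 replicates allow. The ZEB difference was smaller than its spread and fell to 7.03 without A. The TWIST difference was -16.0 without B1 and -18.0 when ranked by fragments, and the SNAI difference was 29.5 when ranked by q-value and 42.5 by fragments. CDH1 and CDH2 could not be compared in this way because CDH1 had no peak.

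Peak width separated the members in another way. The strongest promoter peaks of TWIST1 and ZEB2 were in the widest part of the distribution in all 3 replicates, and those of SNAI1 and SNAI2 in the narrowest, at mean width percentiles of 13.0 ± 2.52 and 5.86 ± 2.57 (SD, n = 3 each). Widths of TWIST2 (428 to 1786 bp) and CDH2 (489 to 1491 bp) depended on whether neighbouring summits were listed as 1 peak. Fragments averaged 200 bp after sonication per the labels, so a peak of 229 bp, the narrowest of the strongest promoter peaks at SNAI2, was little wider than a fragment.

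The strongest promoter peak also overlapped promoter windows of noncoding genes at 4 members, so it cannot be assigned to the member alone. These were ZEB1-AS1 at ZEB1, ZEB2-AS1 at ZEB2, ENSG00000236536 at TWIST1 and ENSG00000288761 at SNAI2. SNAI1, TWIST2 and CDH2 shared theirs with no other gene. Within 10 kb of the 8 gene records, 17 separate regions carried a peak in at least 1 replicate and 11 of them in all 3. Promoters held 14, the TWIST2 intron 1, and the flanks of ZEB2 and CDH1 1 each.

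To place each member in the ranking, the genes next to it in mean percentile are named. HNRNPL and SLC25A51 stood beside TWIST2 (58.6 and 58.5), RNF185 and MZT2A beside ZEB1 (both 44.7), and SOAT1 and GTF2F2 beside TWIST1 (both 28.7). PPARG and ZNF69 stood beside ZEB2 (both 25.3), VGLL3 and PMP22 beside SNAI1 (both 23.0), CYP51A1 and MDFIC beside CDH2 (both 19.8), and MYCBPAP and HMGN5 beside SNAI2 (6.59 and 6.56). These genes were near in the mean over 3 replicates only, and the spread between replicates could differ. For ZEB2 the SD was 8.88 and for PPARG 1.65.

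Genes that act with the EMT factors were then counted by list, beside the 60.2% of all protein-coding genes bound in 3 replicates. The lists were not split by CpG class, and 81.2% of genes with CpG-island-like promoters were bound. All 12 corepressors and chromatin partners of SNAI and ZEB proteins were bound, with a median percentile of 61.5. The highest were SMARCA4, an ATPase of the SWI/SNF remodelling complex (96.5 ± 2.10), KDM1A, the histone demethylase LSD1 (79.5 ± 8.81, a peak shared with TEX46), and SUZ12, a subunit of Polycomb repressive complex PRC2 (73.9 ± 15.7; SD, n = 3 each). All 7 genes for the kinase and ubiquitin ligase components that act on SNAI and ZEB proteins were bound too, with a median of 70.9. BTRC, which encodes the substrate-binding subunit of a ligase for Snail, had 86.5 ± 9.60 (SD, n = 3). FBXO45 had 83.9 ± 1.38 and FBXL5 73.7 ± 5.54 (SD, n = 3 each), each sharing its peak with a neighbouring protein-coding gene.

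Among 15 other EMT-linked transcription factors 10 were bound, with a median percentile of 21.5. FOXC1 stood at 83.8 ± 3.71 and TCF3, which encodes the E proteins E12 and E47, at 50.0 ± 16.1 (SD, n = 3 each). The third Snail paralogue, SNAI3, had no promoter peak in any replicate, nor did FOXQ1 and KLF8. Of 12 regulators of the epithelial state 5 were bound, with a median percentile of 14.7, the highest being ESRP2, a splicing factor (79.0 ± 9.35), and KLF4 (69.9 ± 12.4), with KLF5 next at 14.7 ± 2.80 (SD, n = 3 each). GRHL2, OVOL1 and OVOL2, factors that oppose EMT, had no promoter peak.

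Of 18 other cadherin genes on a chosen list, which does not hold every cadherin, 4 were bound. The highest were CDH24 at 90.5 ± 7.17, CDH11 at 12.3 ± 4.01 and CDH13 at 3.97 ± 1.10 (SD, n = 3 each). A promoter peak was missing in all 3 replicates at 12 of the 18, CDH3 (P-cadherin) and CDH5 (VE-cadherin) included. The median percentile of the 4 bound was 8.14. CDH1 thus fell with the larger part of the listed cadherin genes and CDH2 with the smaller. The CpG class of their promoters was not taken into account here. Of 6 catenins, which link cadherins to actin, 5 were bound, with a median of 22.8. CTNNB1, the gene of β-catenin, was at 96.9 ± 1.68, CTNNA1 at 60.2 ± 5.88 and CTNND1 at 22.8 ± 10.8 (SD, n = 3 each). Whether catenins and cadherins differ was not tested.

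Counts for markers of both states lay near the background. Of 18 epithelial markers 10 were bound and of 18 mesenchymal markers 11, with median percentiles of 20.0 and 12.6 among those bound. The epithelial markers KRT8 and KRT18 shared a peak and were both counted. TJP1, the gene of the tight junction protein ZO-1, stood far above its list's median at 97.7 ± 1.49 (SD, n = 3), and KRT19, CLDN3 and CLDN7 had no promoter peak. FN1, the fibronectin gene, stood at 54.4 ± 7.73 (SD, n = 3), and COL1A2, COL3A1 and POSTN had none. Of 8 melanocyte lineage markers 4 were bound. These were the lineage regulators MITF (64.1 ± 10.2) and PAX3 (46.7 ± 20.6; SD, n = 3 each), the pigment gene PMEL (82.8 ± 1.70), which shares its peak with CDK2, and the lineage regulator SOX10 at a mean of 7.06, named after its value was seen, while MLANA, TYR and TYRP1 had no promoter peak. Binding is not expression, so these markers do not check the identity of the cells. Of 6 listed miR-200 family entries, whose microRNAs target ZEB1 and ZEB2, 0 were bound in all 3 replicates and 1 in fewer. The latter was the host gene MIR200CHG, with a promoter peak in 2 replicates, named after its value was seen. For microRNA genes the annotated start is that of the hairpin, and the start of the primary transcript may lie elsewhere. These entries are noncoding genes, so the share of protein-coding genes is not their background, and no share for noncoding genes was computed. A host gene and its microRNA count as separate entries, so the 6 are not independent loci.

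**Figure D4:**
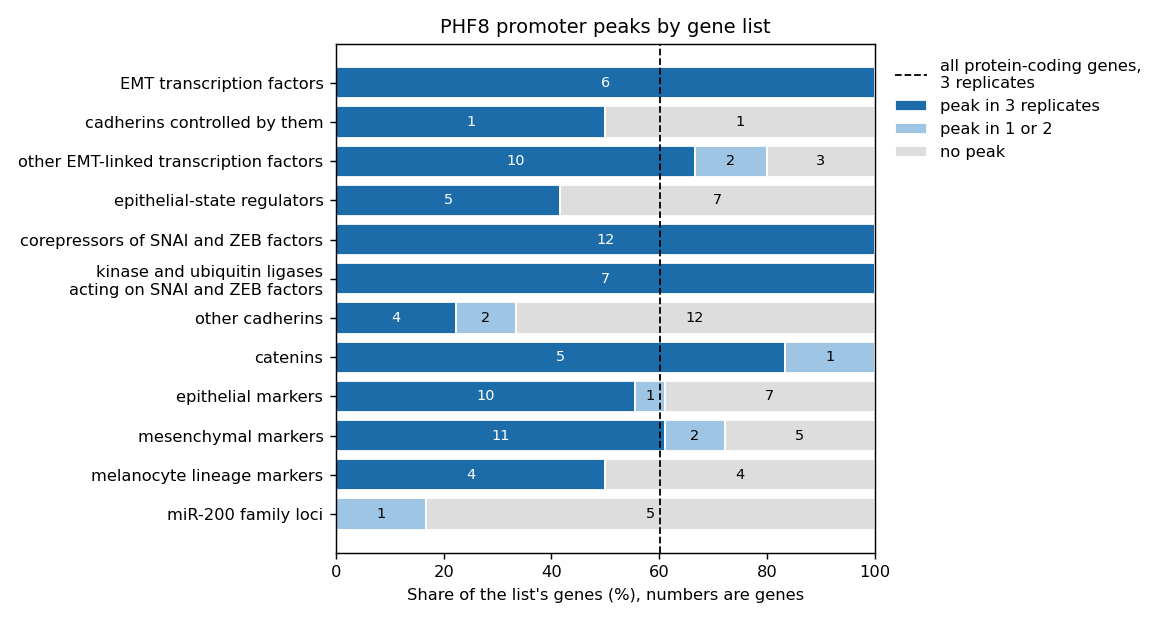
Share of the genes in each list (horizontal axis, percent) with a PHF8 promoter peak in 3 replicates (dark), in 1 or 2 (light) or in none (grey); numbers in the bars are genes and the dashed line is the share of all protein-coding genes bound in 3 replicates, 60.2%. All 6 EMT factors, 12 corepressors and 7 kinase and ligase genes have a peak in 3 replicates, against 4 of 18 other listed cadherins and 0 of 6 miR-200 entries. The miR-200 entries include the host gene MIR200CHG, which has a peak in 2 replicates. They are noncoding genes and not all separate loci, and the dashed line is not their background.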

How the data were processed

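PHF8 ChIP-seq of 3 replicates was taken from the peak lists the authors deposited. As the labels and methods state, the authors mapped reads to hg19 with Bowtie2 and called narrow peaks with MACS for each replicate separately, against input. The submitters' processing notes also name bcl2fastq and Picard. Read totals and duplicate handling are not given in the sources used here, and the 2 inputs were not analysed on their own. Deposited fold enrichments are linear ratios of ChIP to local background at the summit. The deposited p-value and q-value are on a −log10 scale. The deposited score follows the q-value and was not used, and the deposited summit is an offset from the peak start. All peaks passed the study's cutoffs of 1.5 for fold enrichment and 0.05 for the q-value, the latter read as an upper limit although printed as a lower one.

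TSSs came from GENCODE release 44 lifted to GRCh37. Overlap was at least 1 bp. Percentiles ranked each gene's strongest promoter peak within a replicate. Fragments were solved as whole numbers from fold enrichment and p-value under a Poisson law. For 100% of peaks the −log10 p-value so obtained was within 0.001 of the deposited one. The fragments are not corrected for amplification. They were also tested on simulated data made with the same law, which cannot check the law itself. Paralogues were compared by exact sign-flip permutation tests. The members, lists and tests were chosen with earlier results of these data known. All members are named, with the genes next to each in rank and, per list, at most 3 of the highest and 3 without a peak. Some items are not reported here. Alternatives were other q-value, fold, TSS window and TSS set choices, other ranking measures, a peak in 2 replicates and leaving out each replicate. The canonical TSS and the ranking by fragments were added after seeing the data. Tools were Python 3.11.15, pandas 2.3.3, numpy 2.4.6, scipy 1.17.1, pysam 0.24.0 and matplotlib 3.10.9.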

Additional observations from a re-analysis of the deposited data

How the results depend on the processing

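Under every alternative run, CDH1 stayed without a called peak and the direction of each paralogue difference held. For CDH1 no alternative could give another outcome. Its nearest peak lay 7.88 kb or more past the gene, and the widest window was 2 kb. Each paralogue difference had the same sign in all 3 replicates, so leaving out a replicate could not reverse it. The count of members bound at a promoter in all replicates was 7 except for 6 with 1 TSS per gene (ZEB2 lost, at either choice of TSS) and 5 with a fold enrichment above 10 (SNAI2 and CDH2 lost). The median over bound members of the mean percentile, 25.3, ran from 20.3 to 29.7 over its 11 alternatives. Leaving out each replicate gave 12.2 to 21.0 for SNAI1 minus SNAI2, -38.3 to -16.0 for TWIST1 minus TWIST2 and 7.03 to 28.8 for ZEB1 minus ZEB2. The cause of the larger shifts without A or B1 was not tested. The ZEB pair could not be measured with 1 TSS per gene. Depth is unknown beyond the recovered fragments, and signals under the calling limit are not in the lists. No paired analysis was possible because only the ChIP group had peak lists, so groups could not be paired by replicate label; the paralogue differences pair genes within a replicate.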
